A study of Mus musculus with 18 samples.

Results

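Prostaglandins and leukotrienes are lipid signals made from arachidonic acid, and 10 genes of their synthesis and breakdown were followed here through freshly isolated mouse duodenal crypts and the enteroids grown from them. The genes were taken by symbol from the 3 deposited tables of gene values, which together list 18838 genes, and all 10 were found in each table. Crypts are the glands at the base of the intestinal villi that hold the stem cells, and enteroids are small intestinal organoids that form when crypts are plated in Matrigel and overlaid with ENR medium, which supplies EGF, Noggin and R-spondin. The RNA came from mice aged 8 to 12 weeks, 3 of them wild-type (Mtgr1+/+, WT) and 3 carrying a global loss of *Mtgr1* in every cell of the animal (Mtgr1-/-). MTGR1, encoded by *Cbfa2t2*, is a transcriptional co-repressor of the myeloid translocation gene family. A part of each crypt isolate was collected at once (day 0), and the remainder was plated and collected as enteroids at day 1 and day 3, which gave 18 libraries, 3 per genotype and time, from 6 animals. No drug or other treatment is given in the labels of these libraries.

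Phospholipase A2 frees arachidonic acid from membranes. The cyclooxygenases PTGS1 and PTGS2 turn it into prostaglandin H2, which terminal synthases convert to prostaglandin D2 (HPGDS) or prostaglandin E2 (PTGES), and HPGD inactivates the products. In the other branch, 5-lipoxygenase (ALOX5) works with its activating protein ALOX5AP to form leukotriene A4, which LTC4S conjugates with glutathione to give the cysteinyl leukotrienes and LTA4H hydrolyses to leukotriene B4. In the intestine, prostaglandin E2 is known to support crypt regeneration after injury, and the chemosensory tuft cells as well as mast cells are known sources of prostaglandin D2 and cysteinyl leukotrienes.

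MTG proteins do not bind DNA by themselves and are brought to it by partners that include E proteins, whose site is the E box (CANNTG), so the bases upstream of 5 members with contrasting patterns are shown with each E box in capitals. They run 5′ to 3′ on the strand of the gene, come from RefSeq on GRCm38.p6 and stop before the earliest annotated exon of the gene. *Pla2g4a* and *Ptgs2* lie beside each other on chromosome 1, with 138.74 kb between the genes, and both had lower values in day 1 enteroids labelled Mtgr1-/-.
Pla2g4a, minus strand, chr1:149961291-149961540: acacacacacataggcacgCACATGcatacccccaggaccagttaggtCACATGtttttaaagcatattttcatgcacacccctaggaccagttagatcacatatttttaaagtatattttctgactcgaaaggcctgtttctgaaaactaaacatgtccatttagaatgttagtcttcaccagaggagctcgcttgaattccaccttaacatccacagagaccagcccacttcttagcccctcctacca
Ptgs2, plus strand, chr1:150099781-150100030: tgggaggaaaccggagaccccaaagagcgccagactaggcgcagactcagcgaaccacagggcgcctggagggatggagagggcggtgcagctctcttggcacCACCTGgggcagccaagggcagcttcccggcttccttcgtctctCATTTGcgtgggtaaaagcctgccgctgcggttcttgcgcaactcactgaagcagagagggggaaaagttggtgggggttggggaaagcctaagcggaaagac
Hpgds, minus strand, chr6:65144909-65144980: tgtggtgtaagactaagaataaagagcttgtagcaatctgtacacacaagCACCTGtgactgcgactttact
Ltc4s, minus strand, chr11:50238617-50238782: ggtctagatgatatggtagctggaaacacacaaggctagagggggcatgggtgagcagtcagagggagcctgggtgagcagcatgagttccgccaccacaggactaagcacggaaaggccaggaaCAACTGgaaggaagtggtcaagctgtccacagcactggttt
Alox5, minus strand, chr6:116461179-116461428: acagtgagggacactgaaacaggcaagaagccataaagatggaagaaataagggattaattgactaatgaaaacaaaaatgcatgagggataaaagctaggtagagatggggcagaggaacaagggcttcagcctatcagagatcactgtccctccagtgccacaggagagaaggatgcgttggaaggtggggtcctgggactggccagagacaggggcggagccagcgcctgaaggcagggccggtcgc

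RefSeq promoters were at hand for 9 of the 10 members, *Alox5ap* being the exception. In the 250 bases before the annotated start, *Pla2g4a*, *Ptgs2*, *Hpgds*, *Ptgs1* and *Hpgd* held 2 E boxes each, counted at the upstream start of *Pla2g4a*. *Ltc4s* and *Ptges* held 1, and *Alox5* and *Lta4h* held 0. An E box stood in 66.2% of the 32851 RefSeq promoter windows of that length, so its presence did not set these genes apart. The form CAGGTG, read on both strands and itself one of the E boxes, stood in 17.2% of the windows, and *Ptgs2*, *Hpgds* and *Hpgd* held 1 each. The octamer ATGCAAAT, bound by POU factors such as the tuft cell factor POU2F3 and also read on both strands, stood in 1.60% of the windows and once in that of *Hpgds*, within the exon annotated there by GENCODE and so outside the bases shown.

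The libraries held 22035316 to 29661084 reads in listed genes, with a median of 26258539. Summed counts of 6 epithelial markers lay between 121582 and 309417 in every library. *Cbfa2t2* was not lower in the Mtgr1-/- libraries, with 466 to 697 normalized counts in crypts against 523 to 614 in WT. At day 1 it stood at 789 to 1160 against 710.2 to 788.3, a difference that did not pass in limma (adjusted p = 0.0557). Which part of the gene the allele removes is not given in the sources used here, so its totals do not check the genotype, and Mtgr1-/- below always means the library labelled so. In crypts, the WT library of mouse 3 stood apart, with 7862 summed normalized counts of 4 pan-leukocyte markers against 795 to 852 in the other two WT libraries and 271 to 1004 in the Mtgr1-/- ones. In enteroids it was the Mtgr1-/- library of mouse 3 that held the most, 490.8 at day 1 and 504.1 at day 3, where the other Mtgr1-/- libraries held 17.5 to 42.8. Mitochondrial genes took 13.4% of the counts in the crypts of WT mouse 3 and 11.7% in those of Mtgr1-/- mouse 3, against 6.24% to 6.91% in the other crypt libraries.

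In enteroids *Pla2g4a* was far lower and *Hpgds*, *Ltc4s* and *Lta4h* were higher in Mtgr1-/- libraries on both days. In crypts *Alox5* had the widest gap, with a mean of 551 normalized counts in Mtgr1-/- and 91.4 in WT libraries, but no member passed the test there. A member counted as called when limma, fitted over all genes of a day on log2(normalized count + 1), gave a Benjamini-Hochberg adjusted p below 0.05. Below, a gene said to rise or fall did so in Mtgr1-/- relative to WT libraries of the same day, not over time. At day 1, 6 of the 9 members tested were called, *Hpgds*, *Ltc4s*, *Hpgd* and *Lta4h* as higher and *Pla2g4a* and *Ptgs2* as lower, where 58.9% of all 12587 genes tested were called. At day 3, 4 of 9 were called, 3 higher and 1 lower, against 59.0% of 12782 genes. In crypts 0 of 8 were called, against 4.73% of 12980 genes. There 6 of the 8 had an unadjusted p below 0.05, where 18.5% of all genes did, edgeR called 0 of them and DESeq2 called 4. With mouse number as a block, 3 were called in crypts, *Hpgd* (adjusted p = 0.0135), *Ltc4s* (adjusted p = 0.035) and *Alox5* (adjusted p = 0.0352), and without both crypt libraries of mice numbered 3 the count was 0. The shares of all genes called by these crypt alternatives are not given here. The enteroid shares are near or below those of all genes, so the counts alone do not set these genes apart.

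The 3 values of each genotype did not overlap for 3 of 8 members in crypts, 6 of 9 at day 1 and 4 of 9 at day 3, where 25.5%, 68.1% and 68.8% of all genes tested did not overlap. The median log2 difference over the members tested was 1.66 in crypts, -0.20 at day 1 and 0.36 at day 3, while that over all genes was 0.01, -0.01 and 0.00. Where all libraries of a day were set to the same total, the median over all genes moved to -0.33 at day 1 and -0.20 at day 3. Differences there are thus relative to the scaling of the authors, whose size factors gave 3776 genes higher and 3637 lower at day 1 where equal totals gave 2206 and 5588. At day 3 the split was 3826 and 3719 against 2755 and 5081.

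**Figure D1:**
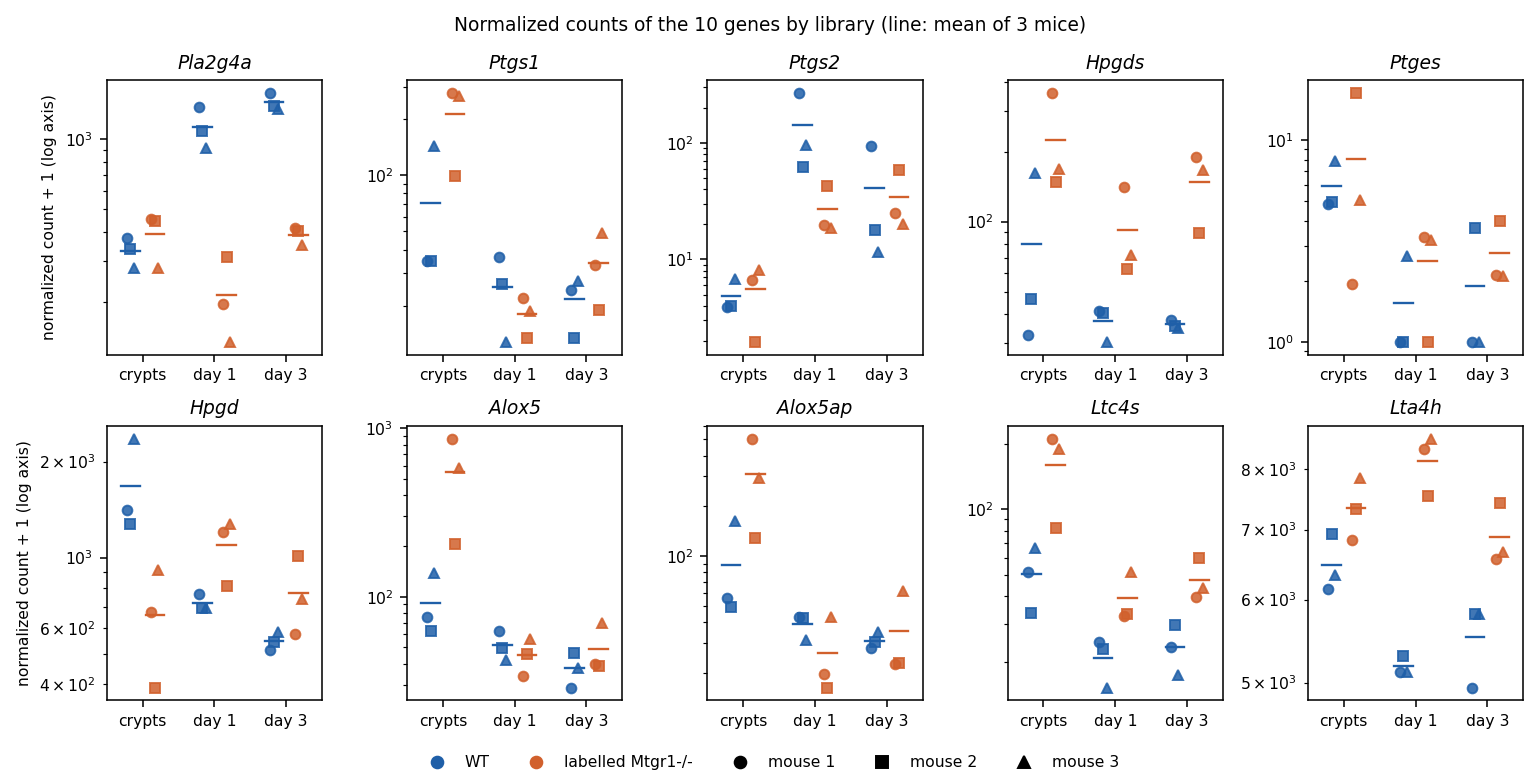
Normalized count + 1 on a log axis for each of the 10 genes in crypts, day 1 and day 3 enteroids, with WT in blue, libraries labelled Mtgr1-/- in orange, the shape giving the mouse number and the line the mean of 3 mice. *Pla2g4a* values of the genotypes part widely in enteroids, and *Alox5* is highest in Mtgr1-/- crypts, where the values spread from 204 to 867.

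*Pla2g4a* (ENSMUSG00000056220.14, chr1:149829618-149961290, minus strand, GRCm38) encodes cytosolic phospholipase A2, the enzyme that releases most of the arachidonic acid used for signalling. WT crypts held 376, 337 and 279 normalized counts of it, and Mtgr1-/- crypts held 455, 442 and 279.5. The genotypes overlapped there, with a log2 difference of 0.22 ± 0.22 (SE, 95% interval -0.30 to 0.75, adjusted p = 0.648). At day 1 the WT values were 1372, 1085 and 913, and the Mtgr1-/- values were 196, 312 and 133. Every Mtgr1-/- library lay below every WT library, and the gene was lower in Mtgr1-/- libraries by 2.45 ± 0.30 on the log2 scale (adjusted p = 0.000504). At day 3, WT libraries held 1580.1, 1387 and 1349, and Mtgr1-/- libraries held 415, 401 and 349. The difference of -1.89 ± 0.11 (adjusted p = 1.1e-05) was again without overlap, and both enteroid calls held under all 19 alternatives tried for each day.

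*Ptgs1* (ENSMUSG00000047250.13, chr2:36230426-36252272, plus strand), the constitutive cyclooxygenase, had values of 33.5, 33.7 and 143 in WT crypts and 277, 98.0 and 266 in Mtgr1-/- crypts. WT mouse 3 lay above Mtgr1-/- mouse 2, and the log2 difference of 1.81 ± 0.66 was not called (adjusted p = 0.204). Without the WT library of mouse 3 it was 2.49 (adjusted p = 0.0476). In enteroids the gene was low and the genotypes overlapped, with 11.7 to 35.7 in WT and 12.3 to 21.0 in Mtgr1-/- libraries at day 1 and 12.5 to 26.1 against 17.9 to 48.3 at day 3. The intervals of the log2 difference, -1.45 to 0.68 and -0.40 to 1.59, do not exclude a change in either direction.

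*Ptgs2* (ENSMUSG00000032487.8, chr1:150100031-150108227, plus strand), the inducible cyclooxygenase, was at 7.1 normalized counts or less in every crypt library, below the mean of 10 set for a test. At day 1 it stood at 269, 61.4 and 94.7 in WT and at 18.7, 41.7 and 17.6 in Mtgr1-/- enteroids. The groups did not overlap. The gene was lower in Mtgr1-/- than in WT enteroids by 2.23 ± 0.56 on the log2 scale (adjusted p = 0.0105), with WT mouse 1 far above the other libraries. Without that library the difference was -1.63 (adjusted p = 0.025). By day 3 the values were 93.2, 16.9 and 10.6 in WT and 23.9, 57.7 and 19.1 in Mtgr1-/- enteroids, and the genotypes overlapped. The log2 difference was 0.19 ± 0.76 (adjusted p = 0.839), with an interval from -1.56 to 1.94, and its sign turned in edgeR, DESeq2, the fit with array weights and the scaling to equal totals.

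*Hpgds* (ENSMUSG00000029919.5, chr6:65117293-65144908, minus strand), the hematopoietic prostaglandin D synthase, was called higher in Mtgr1-/- enteroids on both days. At day 1 its values were 40.2, 39.6 and 29.3 in WT and 139.9, 61.6 and 70.6 in Mtgr1-/- libraries. It rose by 1.21 ± 0.34 on the log2 scale (adjusted p = 0.0163), although without WT mouse 3 the adjusted p was 0.0544. At day 3 the WT values lay close together at 36.7, 34.7 and 33.9, and the Mtgr1-/- values were 188, 88.5 and 165. The log2 difference was 1.97 ± 0.29 (adjusted p = 0.000777), without overlap, and the call held under all 19 alternatives. In crypts the values were 31.6, 45.5 and 161 in WT and 357, 147 and 167 in Mtgr1-/- libraries. There WT mouse 3 reached the level of the Mtgr1-/- libraries, the difference of 1.73 ± 0.63 was not called (adjusted p = 0.206), and without that library it was 2.41 (adjusted p = 0.0377).

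*Ptges* (ENSMUSG00000050737.13, chr2:30889471-30929863, minus strand), the inducible prostaglandin E synthase, stayed below the minimum on all 3 days. Its highest value was 16.2, in the Mtgr1-/- crypts of mouse 2, and it had 0 to 3.0 normalized counts in the enteroid libraries, so no difference between genotypes was detectable at this depth.

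*Hpgd* (ENSMUSG00000031613.9, chr8:56294585-56321043, plus strand) encodes the dehydrogenase that inactivates prostaglandins. In crypts it stood at 1409.7, 1270.1 and 2362 in WT and at 672, 389 and 912 in Mtgr1-/- libraries, lower in each of the latter than in any of the former. The log2 difference of -1.38 ± 0.35 missed the threshold (adjusted p = 0.082). In day 1 enteroids the order was the opposite, with 770.0, 692.5 and 691 in WT and 1201, 816 and 1273 in Mtgr1-/- libraries. It rose there by 0.59 ± 0.17 (adjusted p = 0.0185), a call that was lost when any of 4 single libraries was left out and at equal totals, where the difference was 0.26 (adjusted p = 0.115). The day 3 values, 514, 544 and 582 in WT against 576, 1010.1 and 742 in Mtgr1-/- libraries, overlapped by a small margin at a log2 difference of 0.47 ± 0.19 (adjusted p = 0.059).

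*Alox5* (ENSMUSG00000025701.12, chr6:116410077-116461178, minus strand), 5-lipoxygenase, showed the widest gap of any member in crypts. WT crypts stood at 74.7, 61.4 and 138 normalized counts, and Mtgr1-/- crypts at 867, 204 and 583. All Mtgr1-/- libraries exceeded all WT libraries, yet they spread from 204 to 867 among themselves. The log2 difference of 2.43 ± 0.56 (interval 1.12 to 3.75) had an adjusted p of 0.06. Without Mtgr1-/- mouse 2, the lowest of its group, the difference was 3.03 (adjusted p = 0.0133). In enteroids the excess was not seen. Day 1 values were 61.3, 48.9 and 41.1 in WT and 32.7, 44.6 and 55.1 in Mtgr1-/- libraries, and day 3 values were 27.8, 45.4 and 36.8 against 38.7, 37.8 and 68.5. The intervals of these differences were -0.86 to 0.45 and -0.35 to 1.08.

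*Alox5ap* (ENSMUSG00000060063.9, chr5:149264767-149288153, plus strand), the activating protein of 5-lipoxygenase, followed *Alox5* in crypts, at 54.6, 48.5 and 160.0 in WT and 505, 127 and 294 in Mtgr1-/- libraries. WT mouse 3 overlapped with Mtgr1-/- mouse 2, and the log2 difference was 1.81 ± 0.62 (adjusted p = 0.175). At day 1 it stood at 42.1, 41.7 and 30.2 in WT and at 18.7, 15.2 and 41.9 in Mtgr1-/- enteroids. The Mtgr1-/- library of mouse 3, the one with the most pan-leukocyte counts, was high among its group, and the difference was -0.69 ± 0.41 with it (adjusted p = 0.179) and -1.11 without it (adjusted p = 0.0254). At day 3 the same library held 60.6 where the other two held 21.6 and 21.9 and WT libraries held 26.9 to 33.9. The difference was 0.04 ± 0.41 with it (adjusted p = 0.945) and -0.44 without it (adjusted p = 0.219).

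*Ltc4s* (ENSMUSG00000020377.15, chr11:50236461-50238616, minus strand), leukotriene C4 synthase, was higher in every Mtgr1-/- library than in every WT library of the same day. Crypt values were 50.8, 32.7 and 65.6 in WT and 210.0, 80.9 and 187 in Mtgr1-/- libraries, a log2 difference of 1.60 ± 0.43 that was not called (adjusted p = 0.095). At day 1 they were 23.8, 21.9 and 14.2 against 31.5, 32.2 and 50.7. The difference of 0.90 ± 0.34 only just passed (adjusted p = 0.0492), was lost when any single library was left out, and had an adjusted p of 0.0809 with mouse number as a block. These values rest on 64 reads in the 3 WT libraries together and 107 in the Mtgr1-/- ones. Day 3 libraries held 22.4, 28.5 and 16.5 in WT and 38.7, 58.7 and 42.7 in Mtgr1-/-, and the gene rose by 1.03 ± 0.29 (adjusted p = 0.0168), while without WT mouse 3 the adjusted p was 0.0582.

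*Lta4h* (ENSMUSG00000015889.8, chr10:93453411-93484875, plus strand), leukotriene A4 hydrolase, is also an aminopeptidase and had at least 4940.3 normalized counts in every library. In crypts it stood at 6144, 6934 and 6339 in WT and at 6844, 7326 and 7846 in Mtgr1-/- libraries, which overlapped at a log2 difference of 0.18 ± 0.10 (adjusted p = 0.375). Day 1 values were 5121, 5302 and 5121 in WT and 8354, 7528 and 8549.9 in Mtgr1-/- enteroids. It rose by 0.65 ± 0.08 (adjusted p = 0.000622), a small difference. The call held under all 19 alternatives, while the size of the difference ranged from 0.313 to 0.706. At day 3 it stood at 4940.3, 5813 and 5816 in WT and at 6562, 7426 and 6663 in Mtgr1-/- libraries, a rise of 0.32 ± 0.10 (adjusted p = 0.0199). That call was lost at equal totals, where the difference was 0.12 (adjusted p = 0.234), after quantile normalization (0.07, adjusted p = 0.470) and without WT mouse 1 (0.24, adjusted p = 0.0744).

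**Figure D2:**
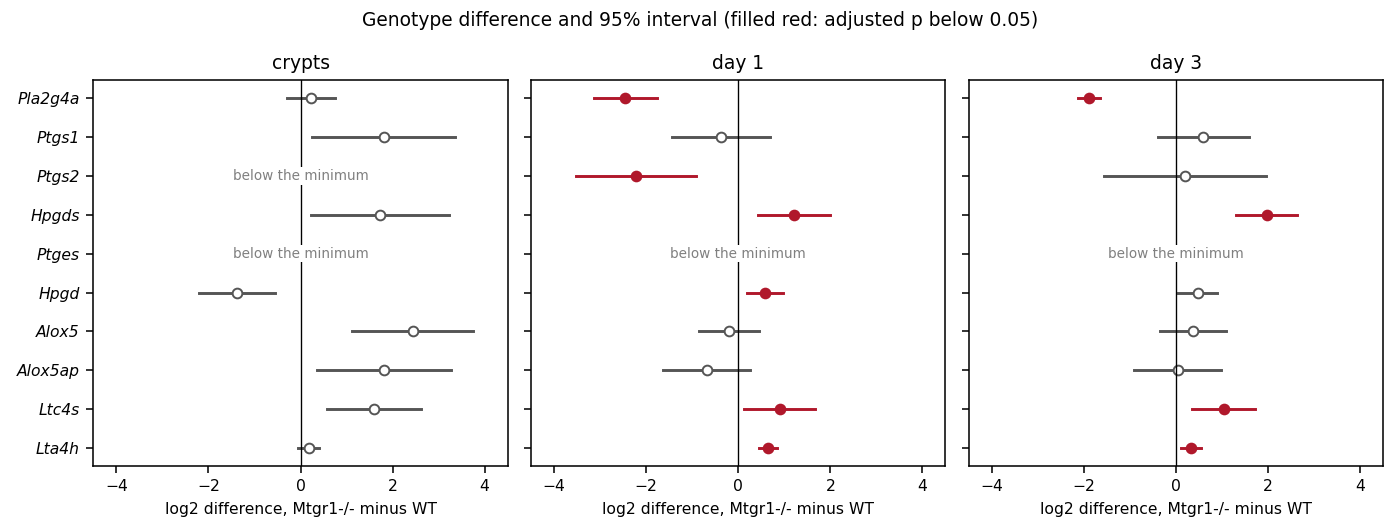
Log2 difference of Mtgr1-/- minus WT with its 95% interval for each gene tested in crypts, day 1 and day 3 enteroids, filled red where the adjusted p was below 0.05. In crypts the intervals of 5 genes lie above 0 and that of *Hpgd* below it with no call, while *Pla2g4a* lies at -2.45 at day 1 and -1.89 at day 3.

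In crypts, *Alox5*, *Alox5ap*, *Ltc4s*, *Hpgds* and *Ptgs1* shared a pattern among the Mtgr1-/- libraries, with mouse 2 lowest for each of the 5. Markers of tuft cells and of mast cells, both known to use these enzymes, moved the same way. The summed normalized counts of 12 tuft cell markers were 1499 to 1966 in WT and 7126, 2195 and 5497 in Mtgr1-/- mice 1, 2 and 3, with 1 of the 10 markers tested called higher and 0 lower. The 8 mast cell markers summed to 73.8 to 262 in WT and to 2567, 315 and 1407 in Mtgr1-/- mice, with 0 of 4 called. The mast cell marker *Cma1* and the tuft cell marker *Il25* never reached 10 normalized counts in a crypt library. Both sums ranked the Mtgr1-/- mice as 1, 3 and 2, as did all 5 genes, and the part of these cell types in the crypt values was not tested. In bulk RNA, more cells of a type and more RNA per cell cannot be told apart.

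The WT library of mouse 3 was the highest WT library for the same 5 genes, and it also held most of the leukocyte RNA, with 17638 summed counts of 6 T cell markers against 1795 and 2109 in the other two WT libraries. Its 8 macrophage and monocyte markers summed to 2637 against 302 and 413. With that library left out, 2 members were called in crypts, *Hpgds* and *Ptgs1*. With Mtgr1-/- mouse 2 left out, 2 were called, *Alox5* and *Ltc4s*. The shares of all genes called in these fits are not given here, so the counts alone do not set the members apart. *Xist*, from which sex was read, stood at 10177 normalized counts in the crypts of WT mouse 3 and 11038 in those of Mtgr1-/- mouse 1. The other crypt libraries held 2.87 to 6.93. Each of these mice was the highest of its genotype for all 5 genes. The part of leukocyte RNA in these values was not tested, nor that of sex beyond the fit with sex as a covariate.

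**Figure D3:**
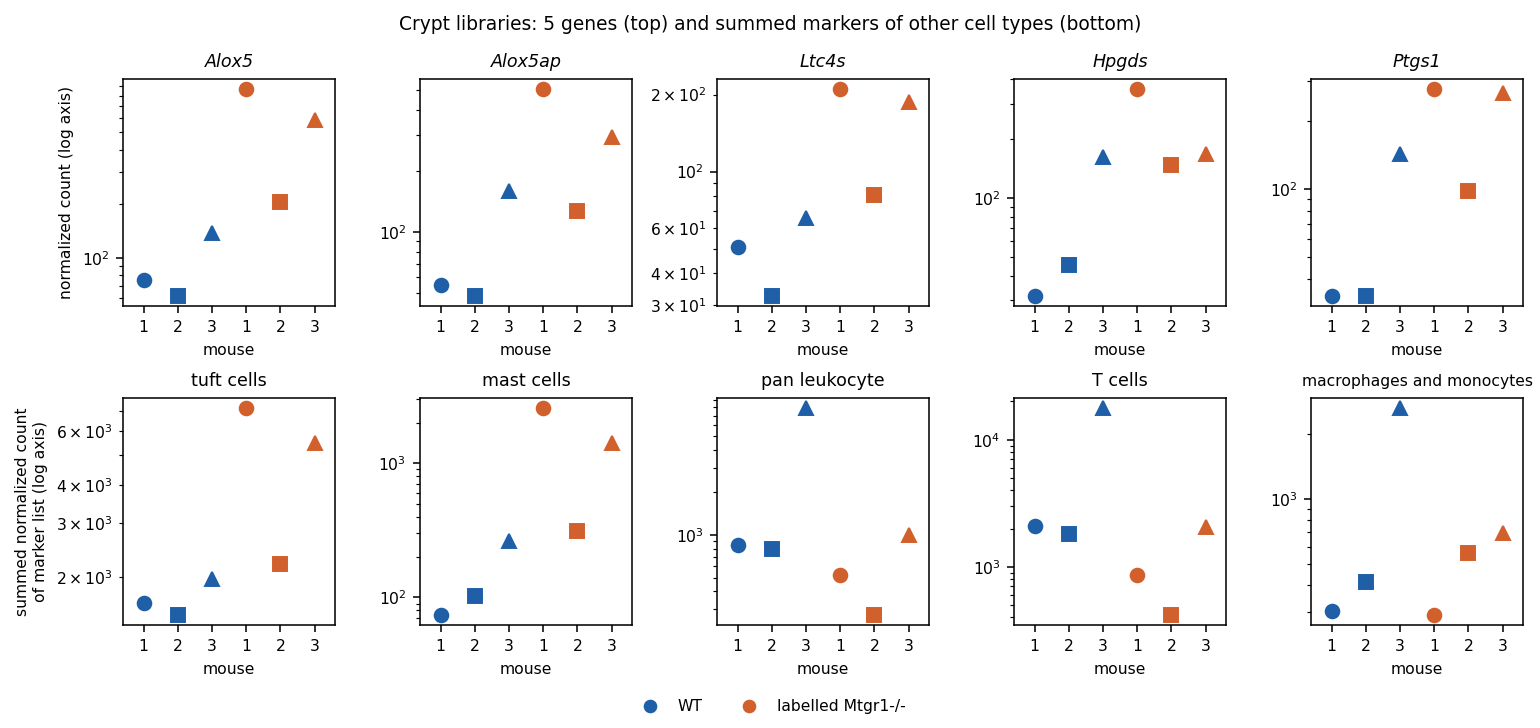
Normalized counts of 5 genes (top) and summed normalized counts of 5 marker lists (bottom), on log axes, in the 6 crypt libraries by mouse number, with WT in blue and libraries labelled Mtgr1-/- in orange. The tuft cell sum ranks Mtgr1-/- mouse 1 (7126) over mouse 3 (5497) over mouse 2 (2195), and the WT library of mouse 3 has the highest leukocyte sum (7862).

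In enteroids the sum of the tuft cell markers went the other way from *Hpgds* and *Ltc4s*. Their sum was 619 to 830 in WT and 398 to 588 in Mtgr1-/- libraries at day 1 and 601 to 711 against 409.6 to 460 at day 3. On each of these days 5 of the 8 tuft markers tested were called lower and 0 higher, where 58.9% and 59.0% of all genes were called. The list was mixed. *Il17rb*, not called, stood at 24.7 to 34.4 in WT and 37.0 to 45.2 in Mtgr1-/- libraries at day 1. *Avil*, called lower at day 1, had a log2 difference of 0.001 at day 3. *Il25* was at 0 or not listed on both days, and *Gfi1b* and *Chat* never reached 10 normalized counts. The mast cell list went with the 2 genes, with sums of 36.0 to 51.2 in WT and 530 to 1226 in Mtgr1-/- libraries at day 1 and 13.4 to 47.4 against 712 to 985 at day 3. Most of each Mtgr1-/- sum was 1 protease, *Mcpt2*, at 1114, 477 and 548 in mice 1, 2 and 3 at day 1 and 676, 952 and 719 at day 3. The mast cell genes *Cpa3*, *Tpsb2*, *Ms4a2* and *Fcer1a* were at 0 to 4.66 in Mtgr1-/- mice 1 and 2 at day 1 and at 0 to 2.98 at day 3, and reached 12.1 to 114 and 8.98 to 60.6 in mouse 3. Of the list, 3 of 4 tested at day 1 and 2 of 3 at day 3 were called higher. All 10 enterocyte markers tested were called higher on both days, with sums at day 1 of 151647 to 197763 in WT and 468138 to 781766 in Mtgr1-/- libraries, and all 5 stem cell markers were called lower. The part of these cell types in the values of *Hpgds*, *Ltc4s*, *Hpgd*, *Lta4h* and *Pla2g4a* was not tested.

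The genotype difference itself changed between crypts and day 1 for 6 of the 8 members tested in all 3 tables, where 41.4% of 12145 genes did so. The gap of *Alox5* moved by -2.64 ± 0.62 on the log2 scale (adjusted p = 0.00496), that of *Alox5ap* by -2.50 (adjusted p = 0.018) and that of *Ptgs1* by -2.19 (adjusted p = 0.0436). That of *Pla2g4a* moved by -2.68 ± 0.36 (adjusted p = 0.000418). As a share of the library total (CPM), which does not rest on the separate scaling of each table, *Pla2g4a* was higher at day 1 than in the crypts of the same animal in each WT mouse, with log2 changes of 1.84 to 1.88, and lower in each Mtgr1-/- mouse, with changes of -1.59 to -0.69. The gaps of *Hpgd* (1.97, adjusted p = 0.00267) and *Lta4h* (0.47, adjusted p = 0.00763) moved upwards, although that of *Lta4h* was 0.20 after quantile normalization (adjusted p = 0.114). The animals of the 2 genotypes did not overlap in this change for *Alox5*, *Alox5ap*, *Hpgd*, *Pla2g4a* and *Lta4h*, and they did for *Ptgs1*. The share of all genes without overlap in this change was not counted, so the lack of overlap does not set these members apart. The call of *Ptgs1* was lost in 6 of 13 alternatives, with values from -3.30 to -1.51 and an adjusted p of up to 0.239, reached without WT mouse 1, and that of *Alox5ap* in 3 of 13, with an adjusted p of up to 0.106. The gaps of *Hpgds* (-0.51, interval -2.02 to 0.99) and *Ltc4s* (-0.70, interval -1.82 to 0.41) did not pass.

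Between day 1 and day 3, 0 of the 8 members were called, against 0.0329% of all genes, and only *Lta4h*, with a change of -0.33 (adjusted p = 0.511 in limma), had an unadjusted p below 0.05. With Mtgr1-/- mouse 2 left out, the adjusted p of *Lta4h* was 0.0407. *Ptgs2*, which was too low in crypts for this fit, was lower at day 3 than at day 1 in each WT mouse, with log2 changes in CPM of -3.19 to -1.45, and higher in each Mtgr1-/- mouse, with changes of 0.31 to 0.61. The Mtgr1-/- values rest on few reads, 76 at day 1 and 96 at day 3 in the 3 libraries together. This change of *Ptgs2* was not tested.

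Each table has its own scaling, so levels of one gene across days were put on the CPM scale, as shares of the total over the listed genes of a library. *Alox5* was highest in Mtgr1-/- crypts, at 8.56 to 36.1 CPM, above WT crypts at 2.41 to 5.35 without overlap, and WT crypts overlapped with the next group, WT day 1 enteroids at 1.74 to 2.46. *Alox5ap* had the same leading order, with 5.36 to 21.0 and 1.91 to 6.20, which overlapped, and every enteroid library at 2.23 or less. *Ptgs2* was highest in WT day 1 enteroids, at 2.68 to 10.8, which overlapped with WT day 3 enteroids at 0.440 to 3.94, and no crypt library exceeded 0.263. *Hpgd* was highest in WT crypts, at 49.9 to 91.6, above all other groups, of which Mtgr1-/- day 1 enteroids came next at 30.0 to 40.9.

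*Pla2g4a* had its highest levels in WT day 3 enteroids at 55.7 to 66.9 CPM and then WT day 1 enteroids at 38.6 to 55.1, and all crypt and Mtgr1-/- libraries lay at 18.9 or below. *Ltc4s* was highest in Mtgr1-/- crypts (3.40 to 8.74), followed without overlap by WT crypts (1.28 to 2.54). *Hpgds* was also highest in Mtgr1-/- crypts, at 6.17 to 14.8, but overlapped there with Mtgr1-/- day 3 enteroids at 3.00 to 7.20, and its lowest levels were those of WT enteroids, none above 1.72. *Lta4h* ranged only from 206 to 308 over all 18 libraries.

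Another 56 genes of the pathway, none of them a member, were listed by role as a backdrop. In crypts 4 of the 33 tested were called, 3 higher and 1 lower, against 4.73% of all genes. At day 1, 21 of 31 were called, 12 of them higher, and at day 3, 20 of 32, 14 of them higher, which is near the 58.9% and 59.0% of all genes. Their median log2 difference was 0.13 at day 1 and 0.57 at day 3.

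Of the 12 phospholipases A2 tested, 8 were called on each enteroid day, or 66.7% against 58.9% and 59.0% of all genes, 6 lower and 2 higher at day 1 and 5 lower and 3 higher at day 3. *Pla2g10*, a secreted enzyme of the family, stood at 55.4 to 78.3 in WT crypts and 0.942 to 3.05 in Mtgr1-/- crypts, a fall of 4.40 ± 0.48 on the log2 scale (adjusted p = 0.00473). At day 1 it fell by 3.01 (adjusted p = 0.00128). *Pla2g5*, another secreted enzyme, fell by 3.78 ± 0.32 at day 3 (adjusted p = 6.5e-05), from 378.5 to 506 in WT to 18.2 to 48.3 in Mtgr1-/- enteroids. *Pla2g2a*, the secreted group IIA enzyme of Paneth cells, fell by 5.98 at day 1 (adjusted p = 0.000694) and by 6.17 at day 3 (adjusted p = 0.00178). The size of these falls leans on WT mouse 3. It held 3606 at day 1 and 8585 at day 3, against 423 to 455 and 399 to 451 in the other WT mice.

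Genes that break down or take up prostanoids were called as higher where they were called. *Ptgr1*, a reductase that inactivates prostaglandins and leukotriene B4, rose by 0.49 in crypts (adjusted p = 0.0333), by 1.95 ± 0.21 at day 1 (adjusted p = 0.000353) and by 1.37 at day 3. *Slco2a1*, the prostaglandin transporter, rose by 0.80, 1.75 and 1.93 on the 3 days. Of the 5 genes of this role, 2 were called higher in crypts, 3 at day 1 and 4 at day 3, with 0 lower. Of all genes, 4.73%, 58.9% and 59.0% were called on these days in either direction, so the day 1 count is near that share. Among the other prostanoid synthases, *Cbr1*, a carbonyl reductase that acts on prostaglandin E2, rose by 1.13 at day 1 and 1.32 at day 3, while *Akr1b3* fell by 0.52 at day 1. That role held 2 higher and 2 lower calls of 5 tested at day 1 and 2 higher and 1 lower of 6 at day 3, beside the same shares of all genes.

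Downstream of LTC4S, *Ggt1* and *Dpep1* encode the surface enzymes that trim leukotriene C4 to leukotrienes D4 and E4. *Dpep1* stood at 2156 to 2735 in WT crypts and 3936 to 7321 in Mtgr1-/- crypts (log2 difference 1.17, adjusted p = 0.036), and rose by 3.10 ± 0.26 at day 1 and 2.33 ± 0.28 at day 3. *Ggt1* rose by 2.32 and 1.88 in enteroids. Both are enzymes of the enterocyte brush border too, and all 10 enterocyte markers were called higher in Mtgr1-/- enteroids on both days. In crypts 0 of the 10 were called. The part of enterocytes in these values was not tested. Of this role, 3 of 4 tested were called higher at day 1 with 1 lower, and 3 of 4 higher at day 3. Of all genes, 58.9% and 59.0% were called on these days.

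The 2 leukotriene B4 receptor genes rose together. *Ltb4r1* stood at 37.5 to 73.2 in WT and 178 to 248 in Mtgr1-/- enteroids at day 1, a log2 difference of 2.01 ± 0.28 (adjusted p = 0.000894), and *Ltb4r2* differed by 1.86 ± 0.16 (adjusted p = 0.000137). At day 3 the differences were 2.01 and 1.73. These genes are short neighbours in the genome, and the reads of near or overlapping transcripts may be shared between them. The 1 prostanoid receptor gene with enough counts was not called on any day, and neither was the 1 other lipoxygenase tested.

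**Figure D4:**
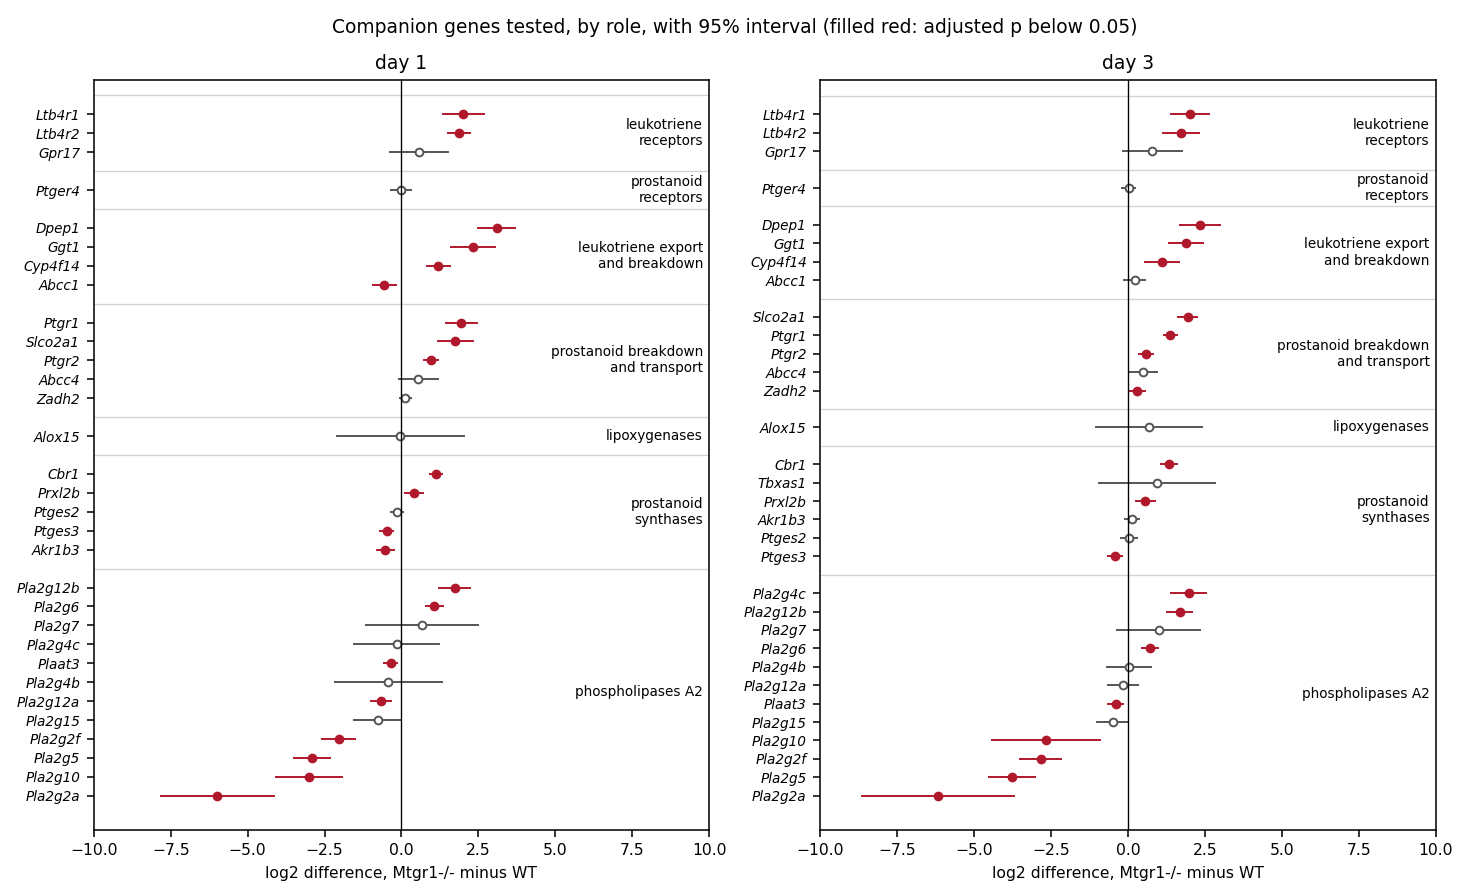
Log2 difference of Mtgr1-/- minus WT with its 95% interval for the companion genes tested in day 1 and day 3 enteroids, grouped by role, filled red where the adjusted p was below 0.05. *Pla2g2a* lies lowest at -5.98 and -6.17, and *Dpep1* lies highest at 3.10 and 2.33.

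As a description of likeness, each member was correlated with 12145 genes over the 18 libraries after centring each table, so that genotype and mouse both enter. *Alox5* and *Alox5ap* were each other's nearest gene (Pearson r = 0.902), and *Ptgs1* was nearest to *Pygl* (0.878) and *Alox5ap* (0.858). *Ltc4s* came nearest to the mast cell protease *Mcpt1* (0.910) and to *1810046K07Rik* (0.893), and *Hpgds* to *Pea15a* (0.933) and *Cryz* (0.920). *Pla2g4a* lay nearest to *Ssb* (0.979) and *Sgo2a* (0.975), *Lta4h* to *Fkbp8* (0.978) and *Tradd* (0.967), and *Hpgd* to *Vwce* (0.962). The next gene after *Alox5* for *Alox5ap* was *Pygl* (0.892).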

How the data were processed

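Stranded poly(A) libraries were read as single reads. Per the study's methods and the labels, the authors trimmed reads with fastp 0.20.0, quantified GENCODE transcripts with Salmon 1.3.0 and analysed genes with DESeq2 1.26.0. The deposited tables, 1 per time point, hold normalized counts, a signal made by dividing each library's gene counts by 1 size factor. In all 18 libraries, 100% of the values were whole multiples of 1 step within a relative tolerance of 1e-06, so whole reads were recovered for the count tests. The deposited mean signal, log2 fold change, its error, test score and p-value columns are the authors' own comparisons and were not used. Every one of the 18838 gene IDs matched GENCODE M21 on GRCm38.

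Genes with a mean of at least 10 normalized counts in a table were tested on log2(value + 1) with limma 3.58.1 (trend, 3 against 3) in R 4.3.3, with Benjamini-Hochberg adjustment over all genes tested. The change between days came from 1 limma fit of the 18 libraries that took animals as random, at a correlation of -0.0048 within an animal. Fold changes are on the log2(value + 1) scale, which understates those of low genes. Alternatives were each library left out, pseudocounts of 0.1 and 8, other filters and scalings, no trend, array weights, a replicate block, edgeR 4.0.16 and DESeq2 1.42.0. The limma fit within each day was tested on simulated counts.

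Same-numbered WT and Mtgr1-/- mice deviated together at day 1, with correlations of 0.116, 0.231 and 0.216 over 12587 genes, so the day 1 fit with mouse number as a block is given where it changed a call. The labels tie no number to a litter. All members were named on each day. Of the companion genes, up to 2 per role and day with the largest called difference were named. For likeness, up to 2 genes per member with the highest correlation were named, and some of these are not reported here. Members and lists were chosen with earlier results of these data known. Confidence intervals are at the 95% level.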

Additional observations from a re-analysis of the deposited data

Results flagged for a closer look

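For 6 of the 8 members tested, the difference between Mtgr1-/- and WT libraries in day 1 enteroids was not the difference in crypts. The limma test of the change over all 18 libraries called such a change for 41.4% of the 12145 genes tested. The change of the log2 difference was -2.64 for *Alox5* (adjusted p = 0.00496), -2.50 for *Alox5ap* (adjusted p = 0.018) and -2.19 for *Ptgs1* (adjusted p = 0.0436), genes whose Mtgr1-/- values lay above WT on average in crypts and below WT on average at day 1. It was -2.68 for *Pla2g4a* (adjusted p = 0.000418), 1.97 for *Hpgd* (adjusted p = 0.00267) and 0.47 for *Lta4h* (adjusted p = 0.00763). *Hpgd* lay below WT in all 3 Mtgr1-/- crypt libraries and above WT in all 3 day 1 libraries. With Mtgr1-/- mouse 1 left out, *Alox5ap* (adjusted p = 0.106), *Ptgs1* (adjusted p = 0.129) and *Lta4h* (adjusted p = 0.0527) no longer passed. Over 13 alternatives the call was lost in 6 for *Ptgs1*, 3 for *Alox5ap* and 2 for *Lta4h*, and in 0 for *Alox5*, *Pla2g4a* and *Hpgd*.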

How the results depend on the processing

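Of 714 alternative values for single members, 630 kept direction and call, 34 lost the call, 34 gained one and 16 turned direction. In crypts the 0 members called became 0 to 2 with 1 library left out, 2 after quantile normalization, 6 with array weights, 3 with a replicate block, 4 in DESeq2, 1 at equal totals and 3 with sex, read from *Xist*, as a covariate. The 4 companion genes called there became 1 to 4 with 1 library left out, 2 without trend, 11 with array weights, 7 in DESeq2 and 2 without both mice numbered 3. Members called numbered 3 to 5 at day 1 with 1 library left out (3 without WT mouse 3) and 8 at day 3 with array weights. Members whose genotype difference changed numbered 3 to 6 from crypts to day 1 (3 without Mtgr1-/- mouse 1) and 0 to 1 from day 1 to day 3 with 1 library left out. The share of all genes called under each of these settings is not given here, so these counts alone do not set the members apart.

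Direction turned only in values that were not called. These were *Alox5* at day 1 after quantile normalization (0.0963), *Alox5ap* at day 3 at equal totals (-0.158) and over left-out libraries (-0.443 to 0.280), and *Ptgs2* at day 3 with array weights (-0.0944), in edgeR (-0.273), in DESeq2 (-0.266), at equal totals (-0.00123) and over left-out libraries (-0.414 to 1.09). With 1 library left out, the change from crypts to day 1 ranged from -1.34 to 0.0357 for *Hpgds*, and that from day 1 to day 3 from -0.525 to 0.159 for *Hpgd* and from -0.138 to 0.406 for *Ltc4s*, which was -0.118 after quantile normalization. At day 1 the block changed no member call but that of *Ltc4s*. The cause of these turns was not tested. Equal totals, sex and leaving out both mice numbered 3 were added after the data had been seen. Same-numbered animals deviated together at day 1 but not by the same measure at day 3 (correlations -0.0156 to -0.00226), where the replicate block called *Hpgd*, and in crypts 1 of the 3 pairs was under 0.1 (0.0764, 0.274 and 0.346). Low counts limit *Ptges*, *Ptgs2* in crypts and *Ltc4s* in enteroids.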

Other observations

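*Pla2g4c*, a calcium-independent phospholipase A2 chosen here after its values were seen, reached 18317 normalized counts in the crypts of Mtgr1-/- mouse 1 and 2137 in those of mouse 3, where mouse 2 held 290.1 and WT crypts 47.5 to 114. Enteroids of the same mouse 1 held 120.1 at day 1 and 329 at day 3, and at day 3 the gene rose in Mtgr1-/- libraries by 1.96 on the log2 scale (adjusted p = 0.000419).

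*Pla2g2a* separated 1 WT animal from the other two on every day. WT mouse 3 held 11409 normalized counts in crypts, 3606 at day 1 and 8585 at day 3, against 261 to 305, 423 to 455 and 399 to 451 in the other two WT mice. The Mtgr1-/- libraries held 21.7 to 220 in crypts, 8.16 to 21.8 at day 1 and 7.96 to 24.9 at day 3, so in enteroids they lay below every WT library with or without that mouse.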
